A study of Mus musculus with 3 samples.

Results

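Hox genes encode homeodomain transcription factors that give cells their position along the head-to-tail axis, and the Cdx genes encode related homeodomain factors that act upstream of them. The genes described here were all those named Hoxa, Hoxb, Hoxc or Hoxd with a number, or Cdx1, Cdx2 or Cdx4, that had a probe set assigned to no other gene. There were 36 of them (33 Hox and 3 Cdx genes) among 18193 genes read, out of 42 such genes in the RefSeq table. The others were not analysed here.

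RNA was profiled on Affymetrix arrays from cells of A2.snail, a mouse embryonic stem cell line in which doxycycline switches on the transcriptional repressor Snail. The cells had differentiated as embryoid bodies in medium with fetal calf serum and DKK1, a secreted inhibitor of Wnt signalling, and were collected at day 3. They were grouped by Flk1, a VEGF receptor that marks mesoderm with endothelial and blood potential. There were 3 arrays, 1 per group. The untreated Flk1- array (0 ng/mL doxycycline) is titled Flk1-, though its labels do not name a sort. The Snail-induced Flk1- and Snail-induced Flk1+ arrays are labelled as sorts after doxycycline (250 ng/mL) was added on day 2. Snai1, the gene meant to be induced, was read by 1 probe set at 29.1 on the untreated array, 13.1 on the Snail-induced Flk1- array and 19.8 on the Snail-induced Flk1+ array. It was thus not higher on either array labelled as induced, as the label would have it. Both values on those arrays lay under the floor described below, and the untreated value lay little above it. No fall was therefore read from them, and whether the probe set reads the introduced gene is not known here. "Snail-induced" is therefore only the name the labels give to these arrays, and directions below are between labelled arrays. No array of doxycycline-treated cells lacking the Snail gene and none of untreated Flk1+ cells was used here, and all arrays come from 1 cell line. With 1 array per group, differences have no replicate check and p-values are not given.

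The mammalian Hox genes lie in 4 clusters, HoxA to HoxD, and genes of the same number in different clusters (paralogues) are copies of 1 ancestral gene. They are switched on in order of their number as the primitive streak forms, low numbers first, and before that their chromatin is held silent by Polycomb complexes. Cdx genes respond to Wnt and FGF signals in the posterior embryo, and Hox proteins bind DNA with TALE cofactors of the Pbx, Meis and Pknox families. In mouse embryonic stem cell cultures Cdx and Hox genes are also known for their part in the step from mesoderm to blood.

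The sequences just upstream of 3 members are shown as examples of different levels among the members with an entry in the promoter table: Hoxa7, which reached the floor described below on all 3 arrays, Hoxd8, the brightest HoxD gene, and Cdx4, which was near the bottom of the scale. Each is the 250 bases before the RefSeq transcript start, written in the direction of the gene. In GRCm38.p6 the Hoxa7 window is chr6:52218574-52218823 on the minus strand, the Hoxd8 window chr2:74704365-74704614 on the plus strand and the Cdx4 window chrX:103321148-103321397 on the plus strand. Capitals mark matches, on either strand, to CAGGTG (an E-box of the kind Snail binds) or TTTATG (a Cdx-type site).
Hoxa7: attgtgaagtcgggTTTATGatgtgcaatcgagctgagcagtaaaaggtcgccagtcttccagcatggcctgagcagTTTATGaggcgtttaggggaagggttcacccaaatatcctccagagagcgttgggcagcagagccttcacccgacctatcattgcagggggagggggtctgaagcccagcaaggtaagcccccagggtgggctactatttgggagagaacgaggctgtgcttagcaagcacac
Hoxd8: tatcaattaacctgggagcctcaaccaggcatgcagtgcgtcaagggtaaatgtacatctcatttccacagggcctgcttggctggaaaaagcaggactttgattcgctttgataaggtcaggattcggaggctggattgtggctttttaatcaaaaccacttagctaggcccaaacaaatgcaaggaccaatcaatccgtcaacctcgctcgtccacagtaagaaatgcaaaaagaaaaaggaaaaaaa
Cdx4: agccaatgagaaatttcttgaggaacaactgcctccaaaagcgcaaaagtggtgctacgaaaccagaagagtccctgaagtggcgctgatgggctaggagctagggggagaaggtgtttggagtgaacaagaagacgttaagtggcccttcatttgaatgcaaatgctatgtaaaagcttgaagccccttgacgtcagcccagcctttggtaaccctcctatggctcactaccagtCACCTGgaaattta
Hoxa7 held 2 TTTATG matches, Cdx4 held 1 CAGGTG match, which reads CACCTG on this strand, and Hoxd8 held no match to either. The search covered the 21 members with an entry in the RefSeq promoter table and also used TGACAG (a Meis-type site) and TGATNNAT (a Hox-Pbx-type site). Windows on 1 chromosome had been left out beforehand, for the members and for all RefSeq windows alike. Cdx1 was among the members without a window. CAGGTG was found in 1 of the 21 windows, against 17.1% of 27025 RefSeq windows of the same length, and TTTATG in 3 of the 21 (Hoxa7, Hoxd3 and Hoxd11), against 11.1%. TGACAG was found in 2 (Hoxa2 and Hoxa3), against 16.0%, and TGATNNAT in 2 (Hoxa2 and Hoxb1), against 7.91%. The windows held a median of 12 CG dinucleotides, against 6 over all windows. Hoxd8 had 6, Hoxa7 had 7 and Cdx4 had 5, while Hoxa13 had 35, Hoxd13 had 31 and Hoxa5 had 28. These matches are letters in a window and say nothing about binding.

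Most of the family was dim. A value is called at the floor here when it reached 25.6 intensity units (the 40th percentile over the 3 arrays together), and a gene with several probe sets was read by the one whose mean was highest. Of the 36 members, 14 (38.9%) reached the floor on at least 1 array, against 76.8% of all 18193 genes, and 5 reached it on all 3 arrays, against 65.7%. Only Hoxb3 and Hoxd8 passed the 60th percentile (80.5 units), a level that 58.5% of all genes passed. In bulk RNA, fewer cells with a gene and less of its RNA per cell cannot be told apart. The number at the floor was 9 on the untreated Flk1- array, 7 on the Snail-induced Flk1- array and 12 on the Snail-induced Flk1+ array, against 71.7%, 70.6% and 71.6% of all genes. Just inside the floor lay Hoxa13 (highest value 26.3) and Hoxa4 (27.5), and just outside lay Hoxa10 (25.3) and Hoxd3 (24.7). The count therefore depends on where the line is drawn: it was 28 with a floor at the 20th percentile and 2 with a floor at the 60th.

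**Figure D1:**
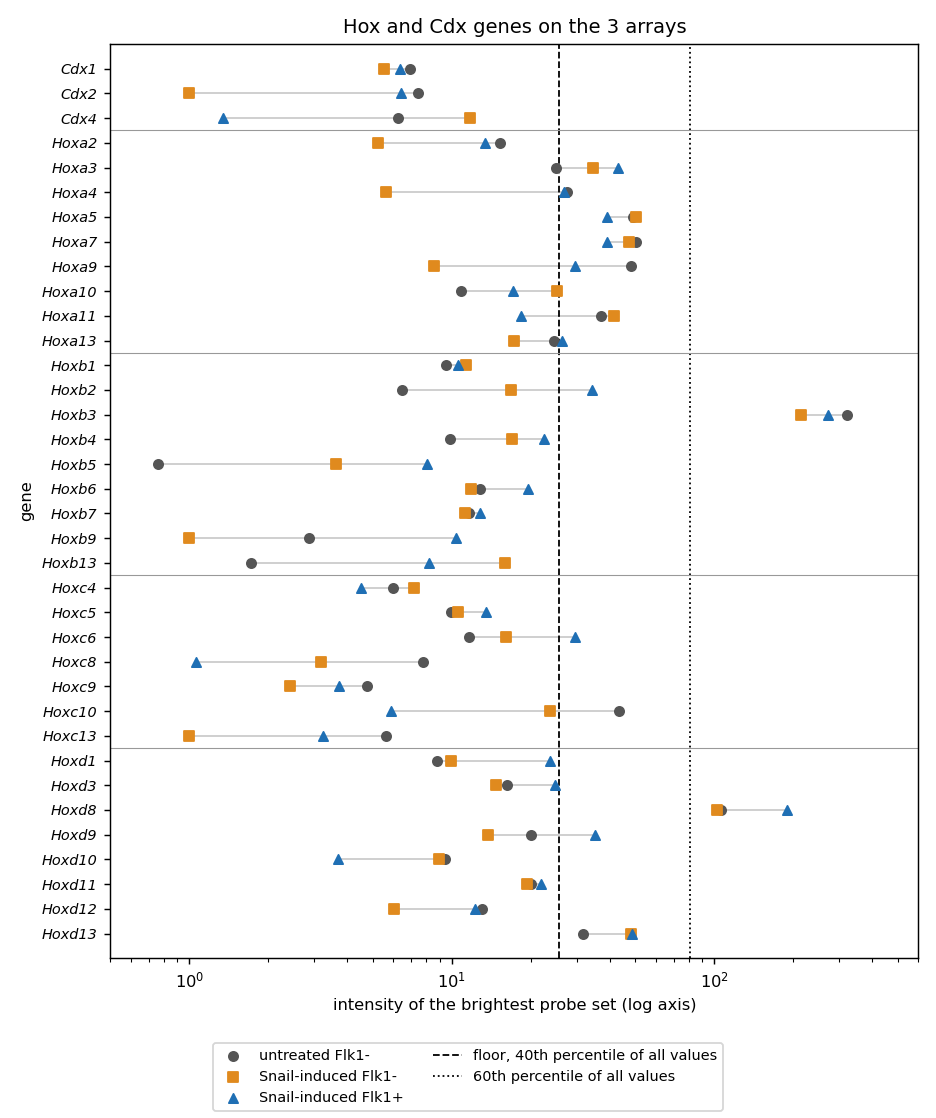
Intensity of the brightest probe set of each of the 36 genes (log axis) on the untreated Flk1- (grey circles), Snail-induced Flk1- (orange squares) and Snail-induced Flk1+ (blue triangles) arrays, 1 array per group, so no error bars. The dashed line is the floor of 25.6 and the dotted line the 60th percentile at 80.5; only Hoxb3 and Hoxd8 lie to the right of the dotted line.

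The Cdx genes were under the floor on every array. Values given in a row of 3, here and throughout, are those of the untreated Flk1- array, the Snail-induced Flk1- array and the Snail-induced Flk1+ array, in this order. Cdx1 stood at 6.92, 5.54 and 6.34. Cdx2, which also marks trophoblast and hindgut, stood at 7.47, 1 and 6.43, and its other probe set was lower still. Cdx4, known for its part in blood formation in stem cell cultures, stood at 6.22, 11.8 and 1.34. All of these values lay far under the floor, so no order among the arrays was read from them.

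The number of genes at the floor was counted by cluster. In HoxA, 7 of 9 members (77.8%) reached it, in HoxB 2 of 9, in HoxC 2 of 7 and in HoxD 3 of 8. Over all genes the share was 76.8%, so by this count HoxA lay near it and the other clusters below it. On all 3 arrays, 2 of 9 HoxA members reached the floor, against 65.7% of all genes. Array by array the HoxA counts were 5, 4 and 6, against 71.7%, 70.6% and 71.6% of all genes. With probe sets averaged within each gene, or without those with a suffix _x, _s or _a, 5 HoxA members reached the floor on any array. The counts by cluster also rest on where the floor is set. At the 20th percentile they were 9 of 9, 8 of 9, 3 of 7 and 7 of 8, and at the 60th 0, 1, 0 and 1. The HoxA genes were not bright, however. Their highest values lay between 15.2 and 50.5, and none passed the 60th percentile. HoxC was the dimmest cluster, with medians of 7.80, 7.16 and 4.50, against 27.5, 25.3 and 26.8 in HoxA. Of the 12 members with 2 or more probe sets 8 reached the floor, against 6 of the 24 with 1 probe set. HoxA held 5 of those 12. The part of probe set number in the difference between clusters was not tested.

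Counts were also taken by position along the clusters. Of the members with paralogue numbers 1 to 4, which are switched on first in the embryo, 4 of 10 reached the floor. Of numbers 5 to 9 it was 6 of 13, and of numbers 10 to 13, the posterior genes, 4 of 10. All of these lay below the 76.8% of all genes. Array by array, the counts for these 3 ranges were 2, 4 and 3 on the untreated Flk1- array, 2, 3 and 2 on the Snail-induced Flk1- array, and 4, 6 and 2 on the Flk1+ array. Within HoxA the genes at the floor ran from Hoxa3 to Hoxa13, with Hoxa10 just under it and Hoxa2 at 15.2, 5.25 and 13.4. In HoxB both were anterior genes, Hoxb2 and Hoxb3, and all 5 members from Hoxb5 upward that were read stayed under it, with a highest value of 19.5 for Hoxb6. Hoxb5, Hoxb6, Hoxb7, Hoxb9 and Hoxb13 are these 5, and Hoxb4 stood just under the floor at 9.82, 17.03 and 22.5. Hoxb1, among the first Hox genes to be switched on in the embryo, stood at 9.49, 11.4 and 10.6. In HoxC they were Hoxc6 and Hoxc10, with Hoxc4, Hoxc5, Hoxc8, Hoxc9 and Hoxc13 at 13.6 or less on every array, and in HoxD they were Hoxd8, Hoxd9 and Hoxd13.

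**Figure D2:**
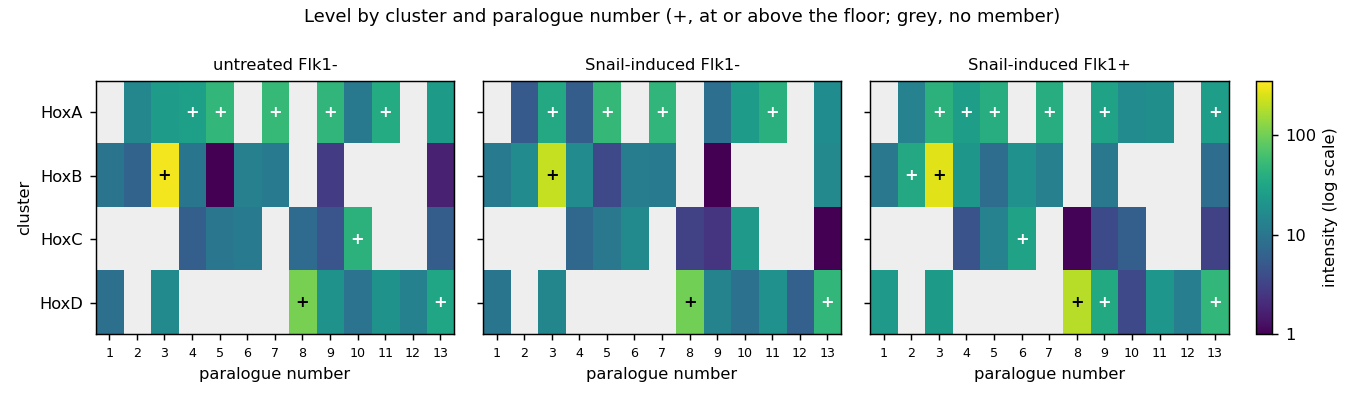
Intensity of each Hox gene by cluster (rows) and paralogue number (columns) on the 3 arrays, on a log colour scale; a plus sign marks values at or above the floor of 25.6 and grey cells have no member. The plus signs are spread over the HoxA row, and the brightest cells are Hoxb3 and Hoxd8 on all 3 arrays.

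Most genes beside the clusters were brighter than the Hox genes within them, Evx1, Evx2 and Calcoco2 apart. The 3 nearest protein-coding genes on each side of each cluster gave 22 genes with a probe set. Of these, 19 were at the floor on all 3 arrays, against 5 of the 33 Hox genes and 65.7% of all genes. The median of the genes' mean intensities was 445 for the flanking genes and 17.8 for the Hox genes. Next to HoxA, Skap2, a signalling adaptor gene, stood at 940, 856 and 1312, and Hibadh, which encodes an enzyme of valine breakdown, at 944, 961 and 941. Next to HoxD, Mtx2, which encodes a mitochondrial outer membrane protein, stood at 1097, 1109 and 1327. The flanking genes under the floor were Calcoco2 and the homeobox genes Evx1 and Evx2, which lie beside the posterior ends of HoxA and HoxD and are regulated with the Hox genes in embryos. Evx1 stood at 5.45, 17.6 and 2.68, and Evx2 at 20.2, 25.2 and 7.63. Snx10, an endosome sorting gene beside HoxA, was the 1 flanking gene past 2-fold, at 764, 502 and 119, 3.97-fold lower in Flk1+ than in Snail-induced Flk1- cells, but its other probe set differed by 0.01 on the log2 scale. Levels of different probe sets are not on 1 scale, so these figures describe detection rather than amounts of RNA.

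**Figure D3:**
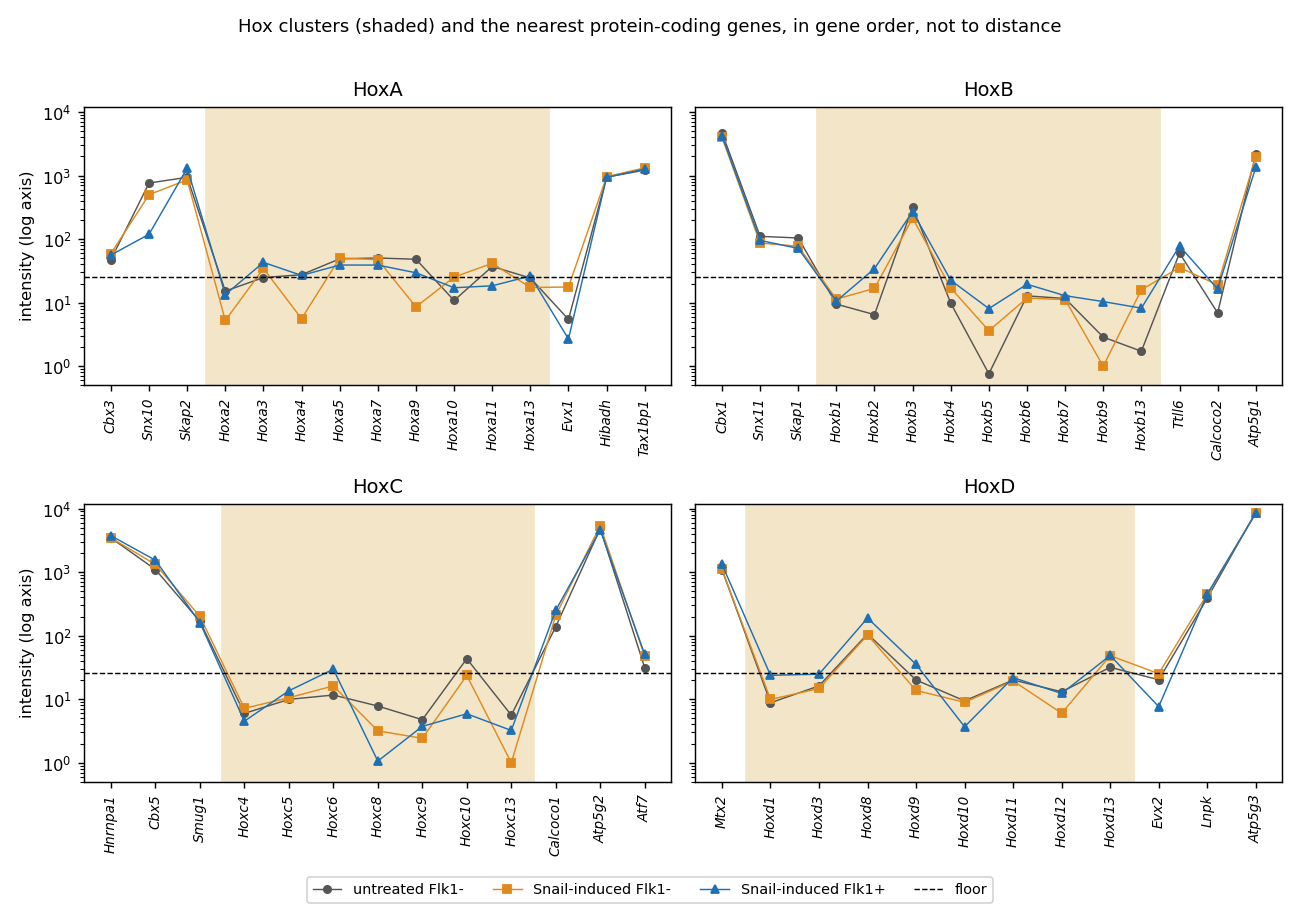
Intensity (log axis) of the Hox genes of each cluster (shaded, ordered by paralogue number) and of up to 3 protein-coding genes on each side, in gene order and not to distance, on the 3 arrays; the dashed line is the floor of 25.6. Most flanking genes lie well above the floor and most Hox genes lie at or under it, Hoxb3 and Hoxd8 apart.

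Of 32 other transcripts listed within the clusters, only 5 had a probe set, and these were dim as well. The rest, Hotair and Hotairm1 among them, were not read. Hoxa11os, an antisense RNA of Hoxa11, stood at 44.5, 32.1 and 57.5, and Hoxa11 itself at 37.1, 41.6 and 18.4, so the pair were highest on different arrays. Hoxb5os, antisense to Hoxb5, stood at 45.6, 50.7 and 43.4, while Hoxb5 stood at 0.76, 3.62 and 8.07. The transcript was thus above the floor on every array and the gene under it on every array. Hoxd3os1 stayed under the floor at 7.08, 18.1 and 16.7. Gm15050 in HoxA stood at 24.3, 16.8 and 28.5, and Gm38462 in HoxD at 24.7, 19.2 and 30.2. None of the 5 was past 2-fold in any comparison.

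The Flk1- arrays labelled untreated and Snail-induced showed few differences in the family. A gene was called when its log2(intensity + 9.53) differed by at least 1 (2-fold on that scale) and the brighter value was at the floor. Of the 14 members at the floor on at least 1 array, 0 were higher and 2 were lower in the Snail-induced Flk1- array. Over all 13974 genes at the floor, 2.92% were called higher and 2.00% lower, and with so few members their share says little. The median log2 difference was -0.06 over the 14 members and 0.04 over all genes. Among the 3323 genes whose highest value lay between the floor and the 60th percentile, where all but Hoxb3 and Hoxd8 lay, 2.56% were called higher and 3.34% lower.

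The lower genes were Hoxa4 and Hoxa9, both by dim probe sets. Hoxa9, a gene of the posterior trunk and of blood stem cells, read 48.2 on the untreated and 8.57 on the induced array, a log2 difference of -1.67 and at least 1.89-fold, since the lower value was under the floor. Its other probe set stood at 9.63 and 10.7 and showed no such difference. Hoxa4, a gene of the neck and upper trunk region, stood at 27.5 and 5.60, a log2 difference of -1.29 but only at least 1.08-fold against the floor. Its other probe set stood at 12.8 and 9.96, under the floor on every array. With probe sets averaged within each gene, 0 members were called lower, and with a floor at the 60th percentile 0 were.

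The other members at the floor were closer. Hoxb3, a gene of the hindbrain and of early blood progenitors, was the brightest of the family at 320, 214 and 272. That placed it at the 78.3, 73.3 and 76.3 percentile of all values, but its other probe set stood at 13.1, 13.7 and 14.5, under the floor throughout. The level of Hoxb3 is therefore uncertain. Hoxa5 stood at 49.0 and 50.4 and Hoxa7, a gene of the trunk, at 50.5 and 47.5 in the pair of Flk1- arrays. Hoxd13, the most posterior HoxD gene, was at 31.7 and 48.4, and Hoxa3, a gene of the pharyngeal arches, at 24.9 and 34.5. The other probe set of Hoxd13 and the other 3 of Hoxa3 were under the floor on every array.

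The share of members highest on the Flk1+ array was not far above that of all genes, and few were higher by 2-fold. Of the 36 members, 16 (44.4%) had their highest value there, against 38.3% of all genes and 35.0% of the genes that stayed under the 60th percentile on every array. By cluster they were 6 of 8 HoxD genes, 6 of 9 HoxB genes, 2 of 9 HoxA genes, 2 of 7 HoxC genes and 0 of 3 Cdx genes. Only 7 of the 16 reached the floor on any array. Under the floor order means little, so no pattern by cluster was read from these counts. In HoxD the 8 values summed to 225, 223 and 360, of which Hoxd8 gave 106, 102 and 189. In HoxB they summed to 376, 303 and 398, most of it from Hoxb3.

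Hoxd8 was higher in Flk1+ cells by both of its probe sets. It encodes a factor of the trunk and, in the embryo, is active in mesoderm. Its brightest probe set stood at 106, 102 and 189, so the Flk1- arrays were alike and the Flk1+ array was 1.78-fold higher than the Snail-induced Flk1- array, short of 2-fold. Its other probe set stood at 16.7, 15.0 and 69.4, with the Flk1+ value at least 2.71-fold above both others. With the mean of its probe sets, Hoxd8 was called higher in both comparisons of Flk1+ cells. The likeness of the probe sets does not stand in for a replicate, since they share RNA and arrays.

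Its neighbour Hoxd9 had the same order at a lower level. It stood at 20, 13.7 and 35.3, and only the Flk1+ value was at the floor, at least 1.38-fold above the others (log2 differences of 0.95 and 0.60). Hoxd1 and Hoxd3, at the anterior end of the cluster, ended just under the floor: Hoxd1 stood at 8.78, 9.90 and 23.7, and Hoxd3 at 16.2, 14.7 and 24.7. These values and those of most posterior HoxD genes were under the floor, and no order was read from them. Hoxd10 stood at 9.40, 8.93 and 3.68, Hoxd11 at 20.02, 19.4 and 21.8, Hoxd12 at 13.1, 6.01 and 12.3, and Hoxd13 at 31.7, 48.4 and 48.7.

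Hoxa5, a gene of the lower neck and lung, depended on the probe set. The brighter on average stood at 49.0, 50.4 and 39.1. The other stood at 22.6, 20.6 and 79.1, with the Flk1+ value at least 3.09-fold above both others, and on that array it is the higher of the pair. The first has an identifier suffix (_x) for probes that may read other transcripts as well, and without such probe sets Hoxa5 was called higher in both comparisons of Flk1+ cells. Which of them gives the level of Hoxa5 was not tested.

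**Figure D4:**
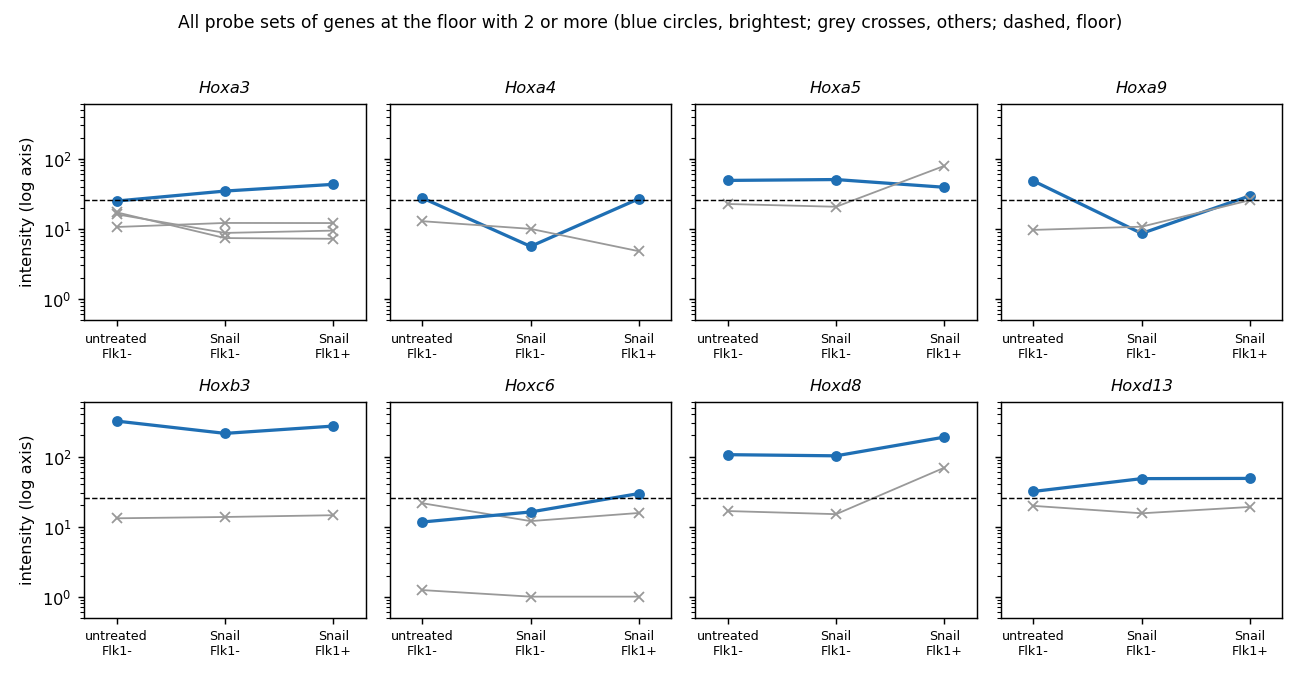
Intensity (log axis) on the 3 arrays of every probe set of the 8 genes at the floor that have 2 or more; blue circles are the probe set used, grey crosses the others, the dashed line the floor of 25.6. Both Hoxd8 lines go up from Snail-induced Flk1- to Flk1+, while the lines of Hoxa4, Hoxa5 and Hoxb3 differ in direction or level within the gene.

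When the Flk1+ sort was set against the Flk1- sort, both labelled Snail-induced, 2 of the 14 members were called higher and 0 lower, against 4.93% and 4.84% of all genes, and 5.39% and 4.18% of the genes between the floor and the 60th percentile. The called genes were again Hoxa4 (5.60 and 26.8) and Hoxa9 (8.57 and 29.5), whose low values on the Snail-induced Flk1- array enter both this comparison and the one before. Against the floor they were at least 1.05-fold and at least 1.16-fold above it. The other Hoxa9 probe set stood at 10.7 and 25.6, higher by 0.80 on the log2 scale, while that of Hoxa4 went from 9.96 to 4.78, both under the floor. Without probe sets that have a suffix _x, _s or _a, Hoxa4 had a log2 difference of -0.45. The median log2 difference was 0.37 over the 14 members and 0.00 over all genes, with 10 of the 14 above 0. Hoxa11, a gene of the limb and uterus, was lower without reaching 2-fold, at 41.6 and 18.4, and Hoxa13, the most posterior HoxA gene, stood at 17.3 and 26.3.

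Between Snail-induced Flk1+ and untreated Flk1- cells, 1 member was called higher and 1 lower, against 8.21% and 6.42% of all genes. This comparison joins the induction label with the Flk1 gate and shares its arrays with the other comparisons. Hoxb2, a hindbrain gene, was the higher one, at 6.48, 16.8 and 34.4, a log2 difference of 1.45 and at least 1.34-fold against the floor. Hoxc10, a gene of the lumbar region, was the lower one, at 43.3, 23.6 and 5.88, a log2 difference of -1.78 and at least 1.69-fold. Each has 1 probe set, and each had its middle value on the Snail-induced Flk1- array. Hoxc6, a gene of the thorax, had the order of Hoxb2 at 11.6, 16.2 and 29.6, but its other probe sets were under the floor on every array and did not. All of these values lay under the 60th percentile, and among genes that peak between it and the floor 5.87% were called higher and 5.96% lower in this comparison.

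The genes of the cofactors of Hox proteins reached the floor more widely, with 6, 8 and 8 of the 8 TALE genes at it on the 3 arrays. Their levels were uneven, with Pbx4 at 31.8, 41.1 and 29.6, Pbx2 at 852, 1081 and 1412 and Pbx3 at 1140, 1243 and 1235. Between the Flk1- arrays, 3 of the 8 were higher in the one labelled Snail-induced and none lower, and the list's median was 0.32 on the log2 scale. Over all genes at the floor, 2.92% were called higher and 2.00% lower, and the share of so short a list says little. Meis1, which binds DNA with Hox proteins and is needed for blood and vessel formation, stood at 16.6, 72.1 and 259. It was at least 2.82-fold higher in Snail-induced than in untreated Flk1- cells and 3.29-fold higher again in Flk1+ cells, but its other 2 probe sets were under the floor in each comparison. Without probe sets that have a suffix _x, _s or _a, the Meis1 difference between the Flk1- arrays was 0.26 on the log2 scale. Meis2 stood at 43.8, 158 and 105, 3.14-fold higher on the Snail-induced than on the untreated Flk1- array, and all 3 of its other probe sets were higher by 2-fold or more there. Pknox2 stood at 25.1, 223 and 248, and its other probe set at the floor was also higher, by 0.51 on the log2 scale. Meis3 and Pknox1 went the other way without reaching 2-fold, at 354, 220 and 266 and at 691, 503 and 442.

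Among the signals and regulators that act upstream of Cdx and Hox genes in the posterior embryo, 13 of 19 were at the floor, and none was past 2-fold between the Flk1- arrays. The ligand genes Wnt3, Wnt3a and Wnt8a were under the floor on every array, Wnt3a at 1, 1 and 1.21. Flk1+ cells had 0 genes higher and 3 lower than Snail-induced Flk1- cells, against 4.93% and 4.84% of all genes at the floor. The list's median was -0.48 on the log2 scale. Fgf8, an FGF of the primitive streak, stood at 73.2, 57.6 and 10.7, at least 2.25-fold lower in Flk1+ cells. Fgf4, an FGF of the epiblast, stood at 568, 326 and 23.5, at least 12.8-fold lower, although 1 of the 2 other probe sets at the floor was slightly higher. Sp8, a zinc finger factor gene of the posterior embryo, stood at 109, 130 and 46.4. Lin28b, a regulator of let-7 microRNAs, was lower only against untreated cells, at 48.0, 28.9 and 17.7. Tbx6, a factor of presomitic mesoderm, stayed at 35.2, 32.6 and 49.8.

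The retinoic acid pathway, a known activator of anterior Hox genes, went both ways. Of 12 genes at the floor, 1 was higher on the Snail-induced than on the untreated Flk1- array and 1 higher and 1 lower in Flk1+ than in Snail-induced Flk1- cells, with list medians of 0.18 and 0.06 on the log2 scale. Over all genes at the floor, 2.92% were higher in the first comparison, and 4.93% were higher and 4.84% lower in the second. Dhrs3, a reductase gene that retinoic acid induces, stood at 82.9, 210 and 286, 2.38-fold higher on the Snail-induced than on the untreated Flk1- array. Cyp26a1, which encodes an enzyme that degrades retinoic acid, stood at 11.6, 10.3 and 114, with the Flk1+ value at least 4.45-fold above both others. Crabp2, a retinoic acid binding protein gene, stood at 756, 450 and 44.2, 8.56-fold lower in Flk1+ than in Snail-induced Flk1- cells. Aldh1a2, the main synthesis enzyme of the embryo, was at 43.4, 53.8 and 37.8, and the receptor gene Rarg at 719, 1011 and 961. Each of Dhrs3, Cyp26a1 and Crabp2 was read by 1 probe set.

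**Figure D5:**
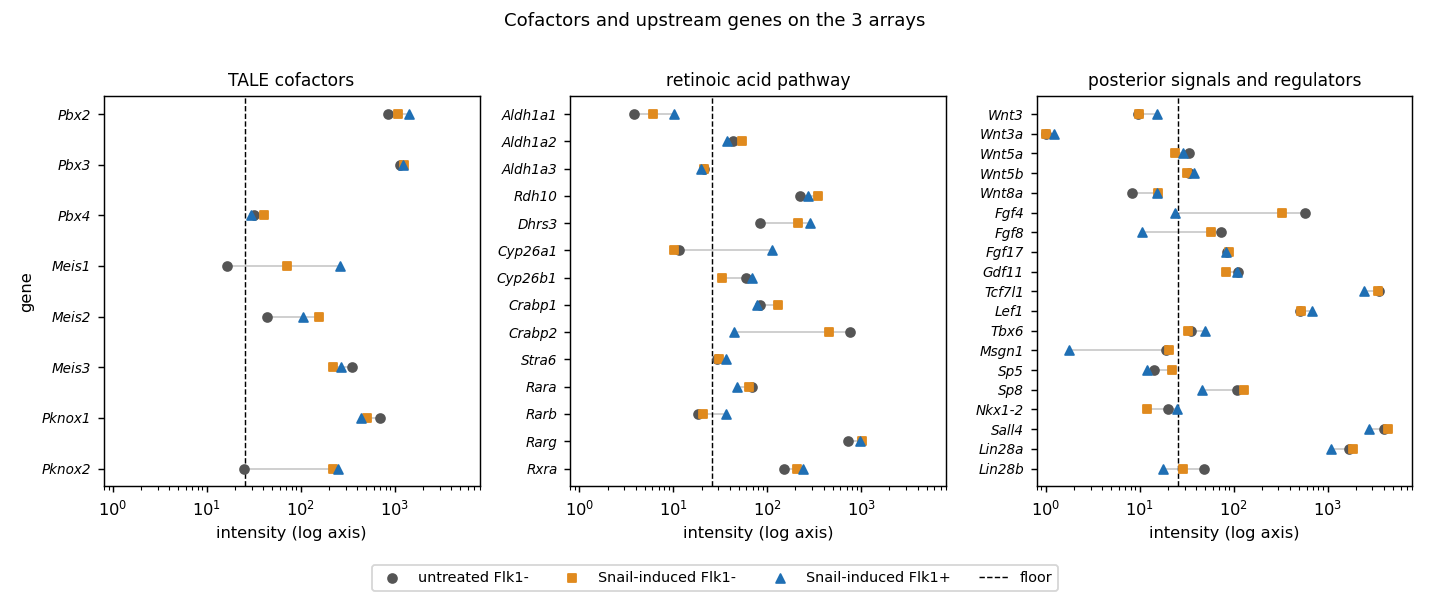
Intensity (log axis) of TALE cofactor genes, retinoic acid pathway genes and posterior signals and regulators on the 3 arrays (grey circles, untreated Flk1-; orange squares, Snail-induced Flk1-; blue triangles, Snail-induced Flk1+); the dashed line is the floor of 25.6. Within their own rows, Meis1 and Cyp26a1 lie farthest right on the Flk1+ array, and Crabp2, Fgf4 and Fgf8 farthest left there.

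Genes of the Polycomb and Trithorax complexes, which keep Hox chromatin silent or active, were nearly all read above the floor: 25, 26 and 25 of the 26 were at it on the 3 arrays. Among them were Ezh2, the main Polycomb methyltransferase gene, at 2366, 2322 and 2835, Suz12 at 1228, 1315 and 1265, and the Trithorax gene Kmt2a at 365, 383 and 431. Between the Flk1- arrays 1 gene, the dim Cbx8 (11.7 and 35.9), was higher on the Snail-induced array and 0 were lower, and centring the arrays ended the Cbx8 call. Over all genes at the floor, 2.92% were called higher and 2.00% lower. In Flk1+ against Snail-induced Flk1- cells, Phc1, a Polycomb subunit gene that is high in stem cells, was 2.79-fold lower, at 4262 and 1523. Ezh1, the methyltransferase gene of more mature cells, was 2.13-fold higher, at 399 and 863. Its 2 other probe sets at the floor went both ways, with log2 differences of 1.25 and -0.37. The second is the difference left without probe sets that have a suffix _x, _s or _a. Over all genes at the floor, 4.93% were called higher and 4.84% lower in that comparison. Against untreated cells, 4 genes of the list were higher and 1 lower in Flk1+ cells, beside 8.21% and 6.42% of all genes at the floor. Bmi1, Phc2, Phf1 and Ezh1 were higher, by 2.81-fold, 2.52-fold, 2.19-fold and 2.17-fold, and Phc1 was 3.08-fold lower. Related homeobox genes outside the clusters were mostly dim, with 4 of 10 at the floor. Gbx2, a gene of the epiblast and midbrain border, stood at 54.6, 112 and 98.1. Pdx1, a pancreas gene, was called higher in Flk1+ than in Snail-induced Flk1- cells but was only at least 1.06-fold above the floor.

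Markers of the sorted cells and of other cell types were read beside these values. The sorted gene Kdr, which encodes Flk1, stood at 10.52, 9.73 and 404, and all 8 endothelial and hemangioblast markers were at the floor on the Flk1+ array, summing to 639, 1127 and 10080 over the 3 arrays. Lmo2, Flt1, Fli1, Tal1 and Tek, genes of the endothelial and early blood program, were among the 8, and all 8 were more than 2-fold higher there than on the Snail-induced Flk1- array. Fli1 (16.8, 147 and 2632) was also higher on the Snail-induced than on the untreated Flk1- array. The 6 pluripotency markers were at the floor on every array and summed to 29347, 31598 and 16637, with Nanog (1767, 1584 and 203), Sox2 and Dppa5a lower on the Flk1+ array than on either other.

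Feeder fibroblasts carry active Hox genes, and of their 12 markers 8 were at the floor on each array, summing to 1465, 1935 and 2026. Of the 9 at the floor on any array, 4 were higher and 0 lower on the Snail-induced than on the untreated Flk1- array, against 2.92% and 2.00% of all genes at the floor. The 4 were Col3a1 (21.8, 122 and 191), Pdgfrb (71.3, 204 and 181), Fbln2 (49.3, 123 and 161) and Dcn (111, 276 and 58.6). Col3a1, Pdgfrb, Fbln2 and Acta2 were higher and Lum lower on the Flk1+ than on the untreated array, and Dcn was lower on the Flk1+ than on the Snail-induced Flk1- array. Postn (1, 1.95 and 3.23) and Col1a1 (4.45, 16.2 and 15.1) were under the floor. Of 8 trophoblast markers read, 5, 4 and 6 were at the floor, summing to 557, 534 and 534. Gata3 (1.31, 16.3 and 197) and the dim Tpbpa were higher and Tfap2c (280, 315 and 97.6) lower on the Flk1+ array than on either other, Krt7 (44.4, 9.69 and 20) was lower on the Snail-induced than on the untreated Flk1- array, and Elf5 was under the floor.

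Of 7 visceral endoderm markers 3, 4 and 4 were at the floor, summing to 443, 554 and 285. Cubn (220, 257 and 44.0) was lower on the Flk1+ array than on either other, Apob (13.1, 27.2 and 39.7) was higher there than on the untreated array, and Afp and Ttr were under the floor on every array. Of 6 gut endoderm markers, 4, 3 and 1 were at the floor, summing to 1328, 388 and 1541. Sox17, also an endothelial gene, gave most of the last sum (68.3, 96.2 and 1466), while Cldn6 (1151, 230 and 13.6) and Foxa1 (46.4, 10.9 and 16.0) were lower on both arrays labelled Snail-induced than on the untreated array, and Cldn6 was also lower on the Flk1+ than on the Snail-induced Flk1- array. Of 7 hematopoietic markers 4, 4 and 6 were at the floor, summing to 1675, 1037 and 775. Most of the first sum came from Myb (1179, 702 and 250), which was lower on the Flk1+ array than on either other, and Hba-x (17.5, 13.9 and 38.1) was higher on the Flk1+ than on the Snail-induced Flk1- array. The part of any of these cell types in the Hox values was not tested.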

How the data were processed

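For each of 45037 probe sets on 3 arrays the authors deposited an intensity, which by its range (0.5 to 18191) is on a linear scale. Per the labels' protocols the targets were biotinylated cRNA made from total RNA by the standard Affymetrix procedure; the step from probes to probe set values and its scaling are not given in any source used here. Array medians were 42.7, 42.4 and 44.6, so the columns were used as deposited. Names came from GEO's annotation of the platform, and Entrez IDs were used to bring symbols up to date with RefSeq (GRCm38.p6); 34945 had 1 symbol, 932 several and 9160 none, and only the first kind was used. Where a gene had several probe sets, the one with the highest mean was used. Intensities were compared as log2(value + 9.53), where 9.53 is the 20th percentile of the values; this shrinks the differences of dim genes. The floor, 25.6, is the 40th percentile. Where the dimmer value was under the floor, the fold is the brighter value over the floor, given as at least that much.

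Every member at the floor on at least 1 array is named, and those 2-fold apart are described with their other probe sets; some list genes and some members under the floor are named beyond this rule, after their values were seen. From other lists, genes past 2-fold are named, at most 6 a list and comparison. The members and lists were chosen with earlier results of these data known. The number of arrays, 1 per group, limits the precision. The calling step was tested on simulated data in which only bright genes were changed, so the test does not bear on calls of dim genes such as the members called here. Alternatives were quantile normalisation, centring, the mean of all probe sets, leaving out probe sets with the suffix _x, _s or _a, floors at the 20th and 60th percentile, no offset, 3-fold, and, added after seeing the data, the probe set with the highest single value. Python 3.11.15, pandas 2.3.3 and numpy 2.4.6 were used.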

Additional observations from a re-analysis of the deposited data

Results flagged for a closer look

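A probe set annotated to a pair of HoxD genes, and therefore left out of the values above, read 1 on the untreated array, 5.63 on the Snail-induced Flk1- array and 43.65 on the Flk1+ array. It was picked out because it lay outside the main measurement, was at the floor on the Flk1+ array (at least 1.71-fold above it) and was more than 2-fold above the untreated control, with a log2 difference of 2.34. Another probe set annotated to a pair of HoxD genes gave 1.22, 1 and 6.09, under the floor on every array.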

How the results depend on the processing

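No paired analysis was possible because each group has 1 array; for the same reason no array could be left out in turn. The number of members at the floor was 14, and it was 28 with the floor at the 20th percentile and 2 with the floor at the 60th. It was 11 with the mean of all probe sets and 12 without _x, _s and _a probe sets. Quantile normalisation and centring called the same members as the deposited values in each comparison. For Snail-induced against untreated Flk1- cells (0 higher, 2 lower), the count of higher members was 1 with the floor at the 20th percentile (Hoxb13). The count of lower members was 0 with the mean of all probe sets or the floor at the 60th percentile, and 1 (Hoxa9) without _x, _s and _a probe sets or at 3-fold. For Flk1+ against Flk1- cells of the Snail-induced culture (2 higher, 0 lower), the count of higher members was 1 with the mean of all probe sets (Hoxd8), 0 with the floor at the 60th percentile or at 3-fold, and 4 with no offset; it was 3 with the probe set of the highest single value (Hoxa4, Hoxa5 and Hoxa9), and without _x, _s and _a probe sets the 2 were Hoxa5 and Hoxa9. The count of lower members was 1 with the floor at the 20th percentile (Hoxc10) and 1 with no offset (Hoxa11). For Flk1+ against untreated Flk1- cells (1 higher, 1 lower), the count of higher members was 2 with the mean of all probe sets, without _x, _s and _a probe sets, with no offset and with the probe set of the highest single value, and 0 with the floor at the 60th percentile or at 3-fold. The count of lower members was 0 with the floor at the 60th percentile and 2 with no offset. Without _x, _s and _a probe sets, Hoxa4 (-0.4457) and Ezh1 (-0.3714) turned in sign in Flk1+ against Snail-induced Flk1- cells. Hoxa5 turned in sign and passed 2-fold there (1.5556) and against untreated cells (1.4652), with the same values for the probe set of the highest single value. Of the recomputed differences of the members, 338 kept their direction and their call or lack of one, 15 lost a call (by value, floor or threshold), 8 gained one in the same direction, 5 turned in sign with a call on either side and 12 turned in sign with none. Counts differ where another probe set, floor or threshold was used by construction; nothing here measures the spread between cultures.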
